A study of Mus musculus with 30 samples.

Results

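The comparison described here is that of female Homo with female WT microglia, 5 libraries against 4 of the 30 listed libraries. The libraries were taken by the genotype and sex (F) in their labels, and the genes by a mean FPKM of at least 0.1 over the 30 libraries, which kept 16897 of the 47643 genes listed. Homo mice were *Bin1* flox/flox::*Cx3Cr1*-Cre+, and WT mice were *Bin1* wt/flox without Cre, so that both groups carried at least 1 floxed allele and only Homo mice carried Cre. Het mice (5 female libraries) were *Bin1* wt/flox::*Cx3Cr1*-Cre+. Microglia of 3 month-old mice were sorted as CD11b+ CD45med cells from brain without cerebellum and olfactory bulbs, and their RNA was sequenced. Each library is named by its group and mouse number, as in Homo-F-0193. The Cre sequence replaces part of a *Cx3cr1* copy and is expressed wherever *Cx3cr1* is, in microglia and in other myeloid cells. In this comparison the loss of *Bin1*, the Cre allele and the lower *Cx3cr1* therefore cannot be told apart. Homo mice also carried the floxed allele on both copies and WT mice on 1. This difference, and any in DNA linked to the floxed allele, cannot be told apart from them either. The study describes its WT mice as littermates, but no label ties a mouse to a litter, and the p-values measure the spread between these libraries.

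BIN1 is an N-BAR protein, which binds and bends membranes and acts in endocytosis and endosomal recycling. The gene is a major risk locus of late-onset Alzheimer's disease, and in the brain it is expressed by oligodendrocytes, neurons and microglia. Microglia are the resident macrophages of the brain. Their resting state is marked by genes such as *P2ry12*, *Tmem119* and *Cx3cr1*, the receptor of the neuronal chemokine fractalkine, and several disease states by *Cst7*, *Axl* and lipid genes, by interferon genes, or by major histocompatibility complex (MHC) genes.

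Values are FPKM, which divide the fragments of a gene by transcript length and by the mapped fragments of the library, so that levels of different genes can be set side by side. Log2 fold changes are differences of log2(FPKM + 0.1), which understates the change of low genes. They come from a limma fit of all 6 groups of the series with Benjamini-Hochberg adjustment over the 16897 genes. Genes with an adjusted p below 0.05 that changed more than 1.5-fold are called differentially expressed (DEGs). SE is the standard error of a log2 value. Read totals are not in the values used here. Depth relative to the median library was read from the smallest steps of low genes and was 1.05 to 1.34 in female WT and 0.855 to 1.01 in female Homo libraries, so every WT library was deeper than every Homo library. The part of depth in the results below was not tested. Between 17483 and 18138 genes were above 0 in the WT libraries, and between 17048 and 18100 in the Homo libraries. The summed FPKM of 11 microglial markers was 23871 to 24728 in WT and 24207 to 25441 in Homo libraries.

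The targeted gene separated the groups. *Bin1* (ENSMUSG00000024381, chr18:32377230-32435737 of GRCm38) was at 252, 244, 244 and 271 FPKM in the WT libraries and at 40.3, 43.3, 43.2, 39.6 and 39.5 FPKM in the Homo libraries. The highest Homo library was far below the lowest WT library, and the Homo mean was 16.3% of the WT mean. *Cx3cr1* (ENSMUSG00000052336) was at 2061 ± 52.6 (SD, n = 4) FPKM in WT and at 1168 ± 52.6 (SD, n = 5) FPKM in Homo, 56.6% of WT, without overlap. Its two-sided exact permutation p was 0.0159, the smallest these group sizes allow, and 0.0369 adjusted over the 93 named genes. The adjusted value depends on how many named genes do not overlap, and some of them were chosen for that. The limma fit of all groups gave *Cx3cr1* a log2 fold change of -0.82 (SE 0.73, limma adjusted p = 1). This fit pools the spread of all groups, among them the library labelled Het-F-0206, with *Cx3cr1* at 13.9 FPKM. Without that library the adjusted p of *Cx3cr1* was 0.158 by limma, and in a fit of WT and Homo females alone it was 0.0029.

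The library labelled Het-F-0206 stood apart from its label. Its *Bin1*, 42.7 FPKM, was in the range of the Homo libraries, while the other 4 female Het libraries were at 152 to 164 FPKM. It is no member of either group compared here, but it enters the fit through the shared estimate of spread. The number of DEGs between female Homo and WT was 12 with it and 16 without it. Among male Het libraries, Het-M-0199 also had *Bin1* in the range of Homo libraries, at 51.8 FPKM. Male Homo libraries were at 39.9 to 55.6 FPKM and the other male Het libraries at 117 to 157 FPKM. Het-M-0199 enters the fit in the same way, and its part was not tested.

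**Figure D1:**
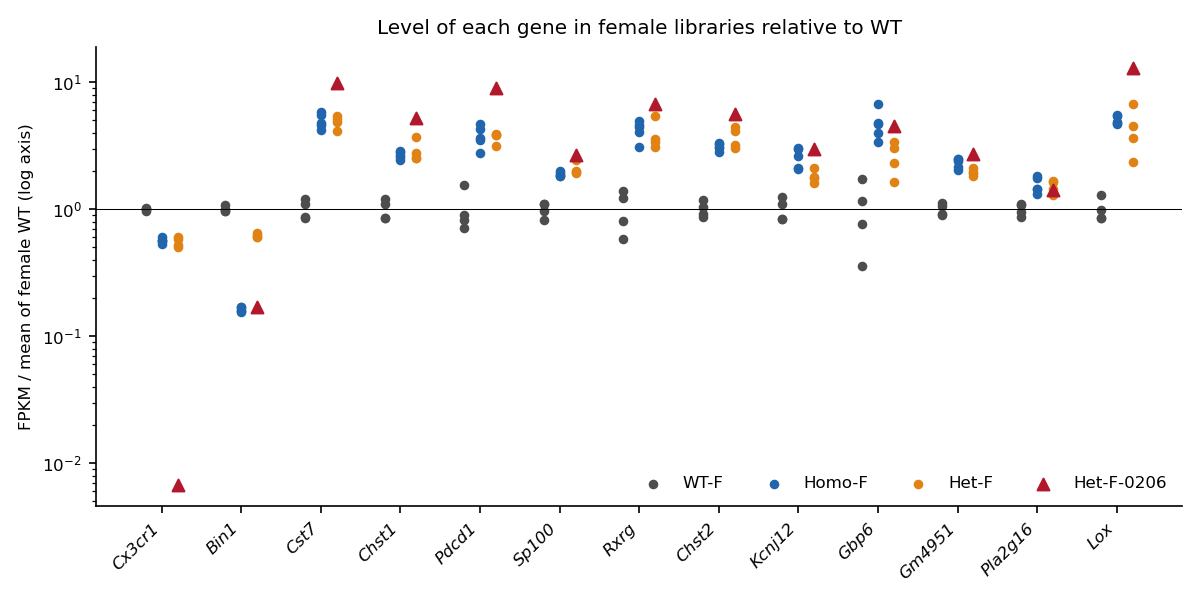
FPKM of *Cx3cr1*, *Bin1* and the 11 raised DEGs in each female library, divided by the mean of the WT libraries (log axis); grey points are WT, blue Homo, orange Het, and the red triangle is the library labelled Het-F-0206. *Bin1* lies lowest in the Homo libraries and Het-F-0206, whereas the raised genes lie above the WT mean in every Homo and Het library.

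In all, 12 genes passed the DEG thresholds, 0.071% of those tested. The transcripts of 11 were raised in Homo mice (0.0651% of the genes tested) and that of *Bin1* was the only one repressed (0.00592%). The raised genes encode a cystatin, enzymes that add sulfate to sugars, an inhibitory immune receptor, a nuclear receptor, interferon-inducible proteins, a potassium channel, a phospholipase and a lysyl oxidase. No library overlapped between Homo and WT for any of the 12, which was so for 2.31% of all genes tested. Each of the 12 had the exact permutation p of 0.0159. The 12 were chosen by their limma p on these same libraries, so neither is independent support. At an unadjusted p below 0.05 there were 391 raised (2.31%) and 198 lowered genes (1.17%). The study named 7 of the 12 (*Bin1* aside) from these same libraries, so their direction is not independent evidence. *Bin1*, *Lox* and *Gm4951* lie on chromosome 18. There, 3 of 381 genes tested were DEGs, against 12 of 16821 over all tested genes with a position. The part of DNA linked to the floxed allele was not tested.

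*Cst7* (ENSMUSG00000068129, chr2:150570415-150578944) encodes cystatin F, an inhibitor of lysosomal cysteine proteases that is a marker of disease-associated microglia. It was at 7.48, 9.46, 10.4 and 7.36 FPKM in the WT libraries and at 41.3, 47.6, 50.5, 39.9 and 36.7 FPKM in the Homo libraries. The lowest Homo library was more than 3 times the highest WT library. *Cst7* rose by 2.31 on the log2 scale (SE 0.22, limma adjusted p = 5.04e-07). Among 17 cystatins and cathepsins tested, *Cst7* was the only one at an unadjusted p below 0.05, and the cathepsins that cystatin F can act on gave *Ctsl* 535 FPKM in WT and 602 FPKM in Homo, and *Ctsc* 435 and 411 FPKM.

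Both raised sulfotransferases act on sugar chains. CHST1 sulfates galactose and CHST2 N-acetylglucosamine in keratan sulfate and related glycans. *Chst1* (ENSMUSG00000027221, chr2:92599707-92615250) was at 11.2, 15.96, 11.2 and 14.4 FPKM in WT and at 32.4, 37.7, 37.5, 34.1 and 35.2 FPKM in Homo libraries, a log2 fold change of 1.43 (SE 0.18, limma adjusted p = 5.73e-05). *Chst2* (ENSMUSG00000033350, chr9:95399292-95406722) was much lower in level, at 0.354 to 0.486 FPKM in WT and 1.15 to 1.37 FPKM in Homo libraries, and had the same log2 fold change of 1.43 (SE 0.21, limma adjusted p = 0.00035). Both genes separated the groups with gaps wider than either group. Of 21 sulfotransferases tested, 1 other had an unadjusted p below 0.05, *Ndst1*, which begins the sulfation of heparan sulfate. *Ndst1* was at 6.41 to 7.44 FPKM in WT and 3.67 to 6.39 FPKM in Homo libraries, a log2 difference of -0.54 (SE 0.20) that did not pass adjustment (limma adjusted p = 1).

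*Pdcd1* (ENSMUSG00000026285, chr1:94038305-94052553) encodes PD-1, the inhibitory receptor best known from T cells. Its level was 2.15, 2.49, 2.75 and 4.73 FPKM in WT and 11.0, 13.03, 14.1, 10.6 and 8.36 FPKM in Homo libraries. WT-F-0207 was the highest of the WT libraries and still below each Homo library. The log2 fold change of *Pdcd1* was 1.92 (SE 0.26, limma adjusted p = 0.000108). It was the only one of 18 immune checkpoint genes at an unadjusted p below 0.05. Among the markers of T, B and NK cells, 5 of 16 were expressed highly enough to be tested, and their sum was 302 to 337 FPKM in WT and 262 to 332 FPKM in Homo libraries, most of it *Ighm*, with 283 FPKM on average in WT.

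*Rxrg* (ENSMUSG00000015843, chr1:167598384-167639623) encodes retinoid X receptor gamma, a nuclear receptor that pairs with others such as the liver X receptors. It was at 0.500, 0.684, 1.04 and 1.19 FPKM in WT and at 2.63, 3.89, 3.48, 3.77 and 4.19 FPKM in Homo libraries, and rose by 2.00 on the log2 scale (SE 0.29, limma adjusted p = 0.00035). The values spread within WT, but no WT library reached the lowest Homo one. Of the other receptors, partners and targets among the 24 genes of that list tested, 0 had an unadjusted p below 0.05, and the list's median log2 difference was 0.02, against 0.00 over all genes tested.

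Interferon-inducible proteins made up 3 of the raised genes. *Sp100* (ENSMUSG00000026222, chr1:85649988-85709998) encodes a component of PML nuclear bodies and rose from 12.2 ± 1.55 (SD, n = 4) FPKM to 23.02 ± 0.993 (SD, n = 5) FPKM, a log2 fold change of 0.91 (SE 0.13, limma adjusted p = 0.000205). The WT libraries were at 13.5, 11.9, 10.1 and 13.3 FPKM and the Homo libraries between 22.2 and 24.6 FPKM. *Sp100* was the only one of 16 PML body genes at an unadjusted p below 0.05. *Gbp6* (ENSMUSG00000104713, chr5:105270702-105293698), a guanylate-binding protein that acts against intracellular pathogens, was low in all libraries, at 0.241, 0.0747, 0.161 and 0.359 FPKM in WT and 0.706, 0.835, 1.40, 0.994 and 0.982 FPKM in Homo (log2 fold change 1.87, SE 0.34, limma adjusted p = 0.0134). *Gm4951* (ENSMUSG00000073555, chr18:60212080-60247820), an immunity-related GTPase gene, was at 1.90 to 2.36 FPKM in WT and 4.27 to 5.27 FPKM in Homo libraries, a log2 fold change of 1.17 (SE 0.22, limma adjusted p = 0.0192). Guanylate-binding proteins and immunity-related GTPases have near-identical copies between which reads can be split, so the assignment to *Gbp6* and *Gm4951* is uncertain.

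The 3 remaining raised genes have unlike roles. *Kcnj12* (ENSMUSG00000042529, chr11:61022564-61071131) encodes an inward rectifier potassium channel. It was at 0.822, 1.22, 1.08 and 0.820 FPKM in WT and at 2.09, 2.57, 2.99, 2.92 and 2.06 FPKM in Homo libraries (log2 fold change 1.28, SE 0.23, limma adjusted p = 0.00887), and was the only one of 12 potassium channel genes at an unadjusted p below 0.05. *Pla2g16* (ENSMUSG00000060675, chr19:7557459-7588545), a phospholipase of lipid metabolism, had the smallest fold change of the 12, from 3.69 ± 0.399 (SD, n = 4) FPKM to 5.75 ± 0.825 (SD, n = 5) FPKM, a log2 fold change of 0.62 (SE 0.12, limma adjusted p = 0.0283). *Lox* (ENSMUSG00000024529, chr18:52516067-52529867) encodes lysyl oxidase, which cross-links collagen and elastin. It was at 0.405, 0.608, 0.467 and 0.401 FPKM in WT and at 2.53, 2.61, 2.21, 2.30 and 2.25 FPKM in Homo libraries. These groups were tight and far apart, but the spread of *Lox* over all 6 groups was wider, and the adjusted p was 0.0389 by limma (log2 fold change 2.13, SE 0.43).

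The 12 calls were not equally firm. *Cst7*, *Bin1*, *Chst1*, *Pdcd1*, *Sp100*, *Rxrg* and *Chst2* passed in all 9 fits made by dropping 1 of the 9 libraries at a time. *Kcnj12* and *Gbp6* passed in 6 of the 9 fits, *Gm4951* in 3, *Pla2g16* in 2 and *Lox* in 0, with adjusted p up to 0.18 for *Lox*. Each of the 12 kept its direction in all fits. The fewest DEGs, 7, were left without Homo-F-0228. Mouse numbers of the series fall into an early and a late range. WT-F-0122 is the only one of the 9 libraries in the early range, and without it there were 10 DEGs, 8 of them among the 12. *H2-Q7* and *Mrpl23-ps1* were added, and *Kcnj12*, *Gm4951*, *Pla2g16* and *Lox* were lost.

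**Figure D2:**
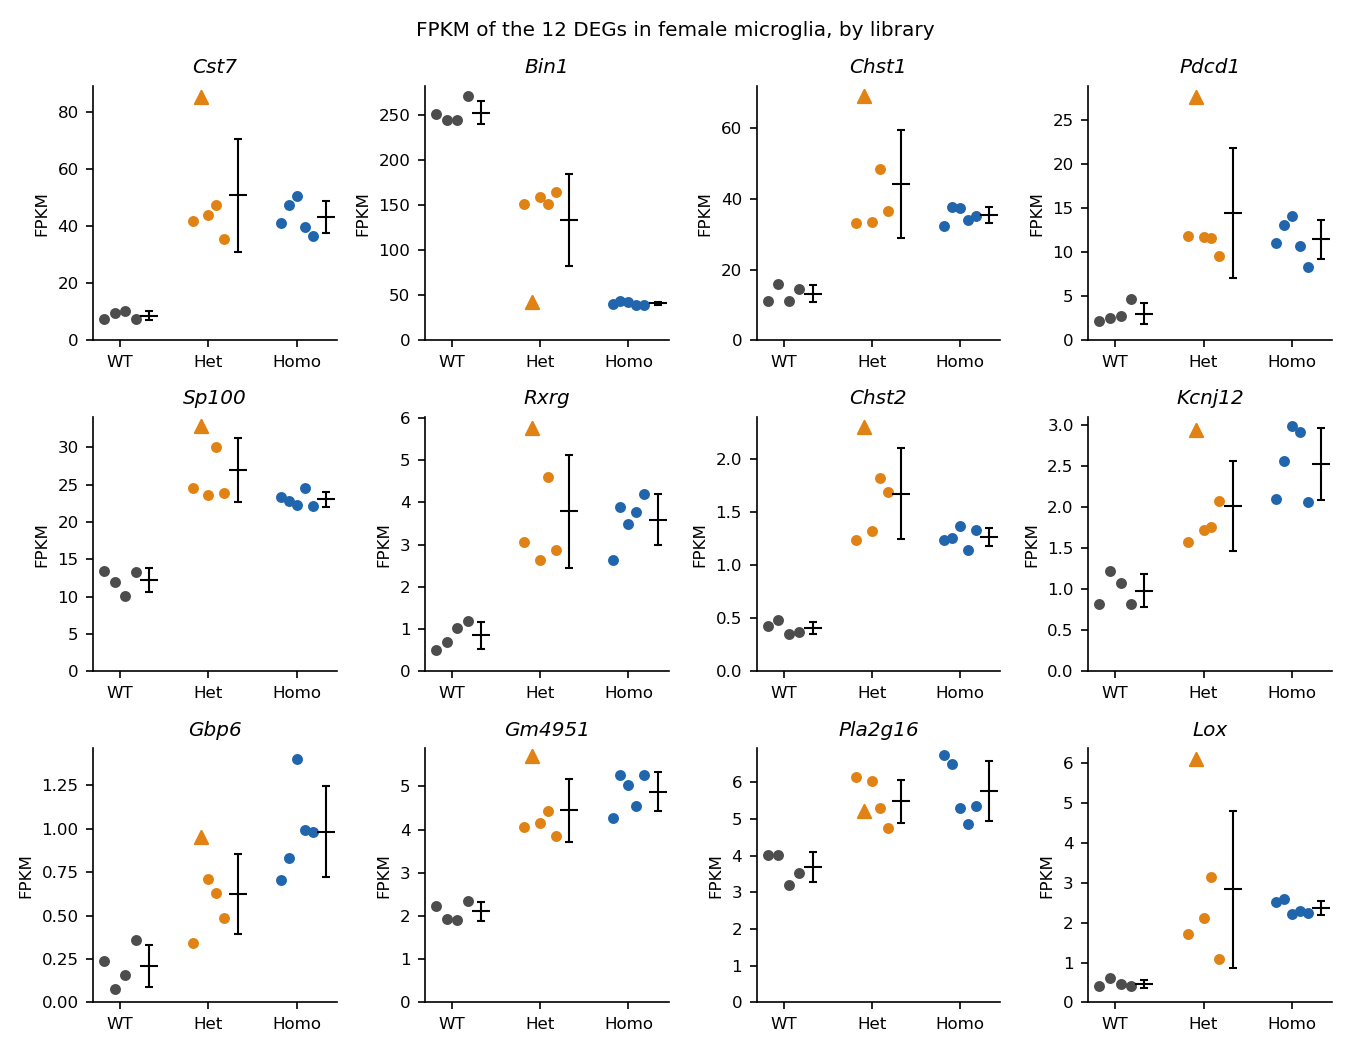
FPKM of the 12 DEGs in each female library of the WT, Het and Homo groups; points are libraries, the triangle is the library labelled Het-F-0206, and bars give the mean and SD. In each panel the 5 Homo libraries do not overlap the 4 WT libraries.

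Promoter sequences of the raised genes were searched for short motifs. These genes were chosen for being raised in this comparison, and whether they vary together was not tested. Windows from 250 bases before to 50 after the transcription start were taken from RefSeq (GRCm38.p6), and 8 of the 9 raised genes searched matched by symbol (*Gbp6* did not). The letters GGAAGT, the core bound by ETS factors and PU.1, the master regulator of microglia, were found on either strand in 3 of the 8 genes (*Cst7*, *Chst1* and *Sp100*) and in 23.8% of all 32817 windows searched. The retinoid X receptor half-site AGGTCA was found in *Pdcd1* and in a window of *Rxrg* (2 genes, 16.3% of all windows). The AP-1 letters TGANTCA were found in *Cst7* and *Pla2g16* (2 genes, 7.81% of windows). An interferon response element (3.43% of windows), a gamma activated site (TTCNNNGAA, 8.29%) and the E-box CACGTG (7.15%) were found in 0 of the 8 genes. The raised genes *Gm4951* and *Lox* were left out of the search. Of the 3 raised genes of interferon-inducible proteins, only *Sp100* was therefore among the 8. Whether *Gbp6* and *Gm4951* hold such elements was not tested. A gene with more than 1 window had more chances of a match, motifs were searched on both strands and may overlap, and a match is a string of letters, not a site shown to be bound.

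The windows of *Cst7*, *Chst1* and *Pdcd1* are shown 5′ to 3′ on the strand of the gene, with matches in capitals, as examples of windows that hold a match, chosen after the matches were seen. *Sp100* also held one, and no window of *Chst2* did. In *Cst7* (chr2:150570165-150570464, plus strand) the first match begins 62 bases before the start (GGAAGT) and the other 6 bases before it (AP-1). In *Chst1* (chr2:92600867-92601166, plus strand) GGAAGT lies on the opposite strand, 166 bases before the start. In *Pdcd1* (chr1:94052504-94052803, minus strand) AGGTCA lies on the opposite strand, 41 bases before the start.
Cst7: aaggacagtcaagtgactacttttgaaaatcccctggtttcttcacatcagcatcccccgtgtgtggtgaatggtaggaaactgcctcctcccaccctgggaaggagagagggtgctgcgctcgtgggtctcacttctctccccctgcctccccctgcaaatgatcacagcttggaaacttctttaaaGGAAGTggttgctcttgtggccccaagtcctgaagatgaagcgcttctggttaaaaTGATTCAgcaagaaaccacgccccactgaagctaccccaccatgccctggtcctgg
Chst1: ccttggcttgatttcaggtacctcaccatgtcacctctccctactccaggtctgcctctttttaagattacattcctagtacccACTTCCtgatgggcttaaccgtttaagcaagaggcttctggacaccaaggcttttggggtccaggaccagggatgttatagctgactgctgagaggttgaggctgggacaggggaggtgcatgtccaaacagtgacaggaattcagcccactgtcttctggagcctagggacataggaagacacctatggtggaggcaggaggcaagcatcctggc
Pdcd1: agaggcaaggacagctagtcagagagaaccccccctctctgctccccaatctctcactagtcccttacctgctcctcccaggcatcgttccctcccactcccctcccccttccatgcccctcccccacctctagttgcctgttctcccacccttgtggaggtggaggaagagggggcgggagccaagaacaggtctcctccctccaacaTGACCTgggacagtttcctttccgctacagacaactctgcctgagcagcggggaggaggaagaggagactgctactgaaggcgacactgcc

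Beyond the DEGs, 8 raised and 8 lowered genes with the smallest p among those without overlap and with a fold change above 1.5 were examined. None passed adjustment, and their adjusted p by limma lay between 0.063 (*Gm6054*) and 0.663 (*Frmd6*). The raised ones included several receptors and surface molecules of immune cells. *Cd244a*, a receptor of natural killer cells and other leukocytes, was at 1.20 to 1.79 FPKM in WT and 2.83 to 4.90 FPKM in Homo libraries. *Hcar2*, the receptor of niacin and beta-hydroxybutyrate, was at 2.74 to 5.85 and 7.75 to 14.1 FPKM, a log2 difference of 1.38 (SE 0.30, limma adjusted p = 0.0738). *Vcam1*, an adhesion molecule, was at 3.30 to 5.09 and 8.25 to 11.0 FPKM (log2 difference 1.24, SE 0.28). The class I genes *H2-Q6* and *H2-Q7* were at 4.16 ± 0.775 and 3.81 ± 1.32 (SD, n = 4) FPKM in WT and at 11.2 ± 3.54 and 8.62 ± 1.94 (SD, n = 5) FPKM in Homo. They are near-identical copies, so reads can be split between them. *Amer2*, *Tmem154* and *Tmem87a* had log2 differences of 0.82, 0.81 and 0.80. *Hcar2*, *Cd244a* and *Vcam1* passed the DEG thresholds when the library labelled Het-F-0206 was left out of the fit.

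The lowered genes of this kind were mostly low. *Gm6054*, a processed pseudogene, was at 0.315 to 0.927 FPKM in the WT libraries and listed at 0 in all 5 Homo libraries, and *Gm8648* and *Gm12663* were likewise listed at 0 in all Homo libraries. *Gm42696* and *Ube2d2b* were above 0 in 1 and 2 of the Homo libraries. The WT libraries, where these genes were seen, were also the deeper ones. *Sema6d*, a semaphorin of axon guidance, was at 4.43 to 6.18 FPKM in WT and 2.21 to 3.64 FPKM in Homo libraries (log2 difference -0.76, SE 0.24, limma adjusted p = 0.658). *Frmd6*, of the Hippo pathway, was at 0.970 to 1.59 and 0.569 to 0.869 FPKM. *Mrpl23*, a mitochondrial ribosomal protein, was at 25.1 ± 2.90 (SD, n = 4) FPKM in WT and 11.7 ± 4.25 (SD, n = 5) FPKM in Homo, while its pseudogene *Mrpl23-ps1*, named after its values were seen, was at 27.5 ± 11.2 and 43.9 ± 8.91 FPKM. As the copies share sequence, reads may be split between them and neither value is certain.

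**Figure D3:**
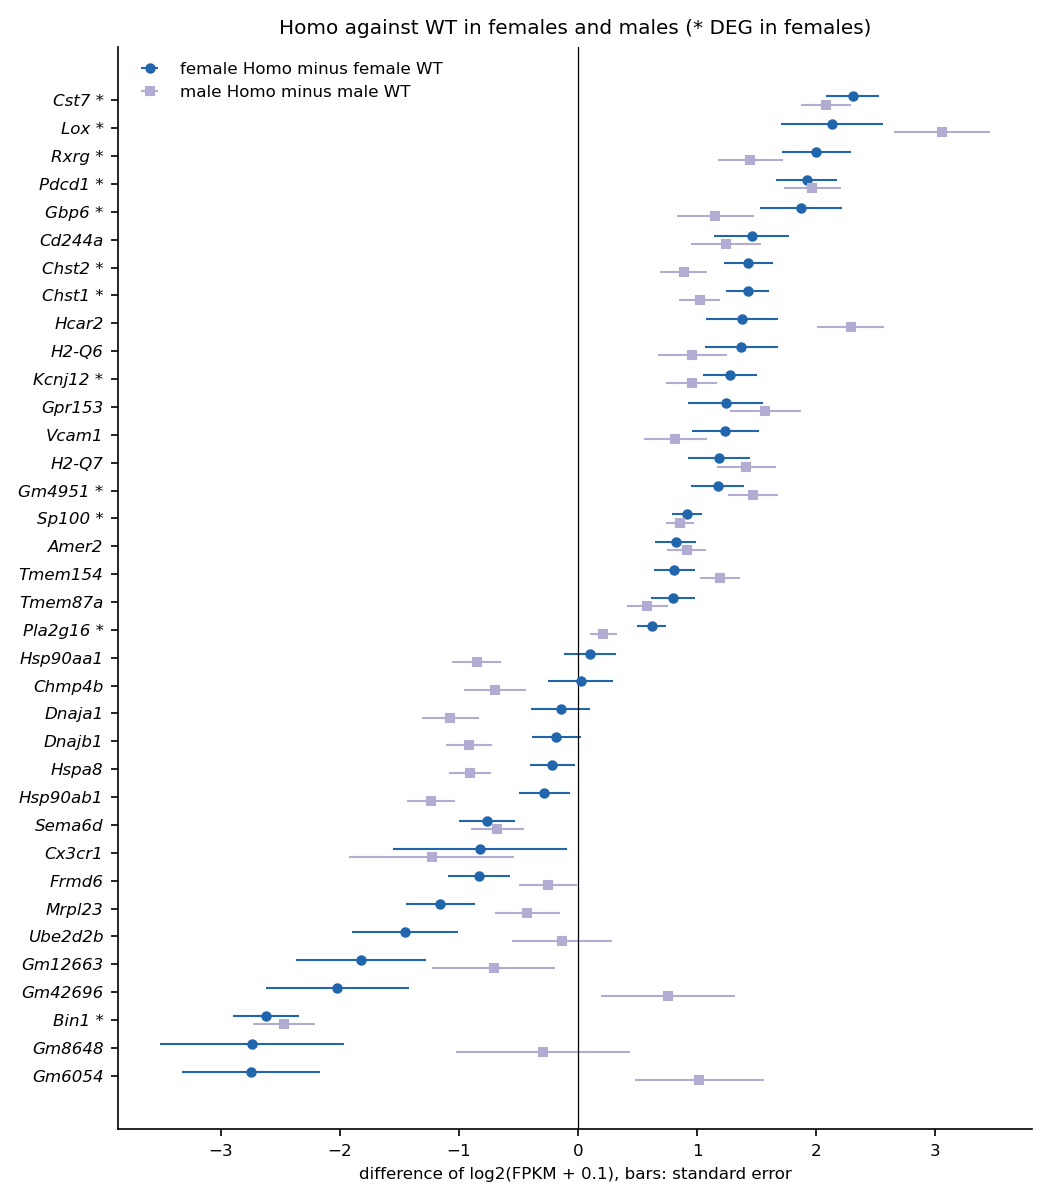
Log2 fold changes of the DEGs (asterisks), the 16 genes next in rank and the genes named by the study, in female Homo minus WT (blue circles) and male Homo minus WT (violet squares); bars are standard errors. The female DEGs lie on the same side of 0 in males, whereas the chaperones lie between -0.28 and 0.10 in females and below 0 in males. The sex difference passed limma adjustment for none of these chaperones. With late mouse numbers alone, none had an unadjusted p below 0.05 for it.

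Among the genes of immune response, members of several lists lay mostly above 0, while few passed a test on their own. Some lists outside immune response leaned likewise. Above 0 were 24 of 31 lysosomal, 18 of 23 sterol and lipid synthesis and 13 of 17 cystatin and cathepsin genes. The same was so for 12 of 13 mitochondrially encoded genes. Other lists did not lean so, with 8 of 26 chaperones and 16 of 34 endocytosis genes above 0. In the type I interferon list, 27 of 31 tested genes had a log2 difference above 0, against 50.3% of all genes, with a median of 0.34 against 0.00. At an unadjusted p below 0.05, 5 were higher and 0 lower (2.31% and 1.17% of all genes tested), *Sp100* among them as the only DEG. *Ifi44* was at 0.136 FPKM on average in WT and 0.618 FPKM in Homo, and *Oasl1*, which limits viral RNA, at 0.283, 0.375, 0.493 and 0.666 FPKM in WT and 0.803 to 1.65 FPKM in Homo libraries. The summed level of the list was 322 to 363 FPKM in WT and 375 to 452 FPKM in Homo libraries. *Cxcl10*, a chemokine of the interferon response, was at 2.56 and 5.18 FPKM on average, and did not reach an unadjusted p of 0.05.

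MHC class I, which presents peptides of the cell interior to T cells, lay mostly above 0. Of its 24 genes tested, 23 were above 0 (median 0.21), 6 were higher and 0 lower at an unadjusted p below 0.05 (2.31% and 1.17% of all genes tested), and 0 were DEGs. *H2-K1*, a classical class I heavy chain, was at 196, 215, 222 and 204 FPKM in WT and at 269, 302, 307, 375 and 323 FPKM in Homo libraries, so the groups did not overlap. *H2-D1* was at 366 to 422 FPKM in WT and 491 to 643 FPKM in Homo libraries. Summed over the list, WT libraries were at 4137 to 4522 FPKM and Homo libraries at 4969 to 5653 FPKM. Class I genes are closely alike in sequence and the split between them is uncertain. Of the 24, 7 were higher without overlap, as were 278 of all 16897 genes tested. MHC class II genes gave 0 of 9 at an unadjusted p below 0.05 (median -0.03), and 2 of the 9 were higher without overlap, *H2-DMa* at 116 to 128 FPKM in WT and 131 to 160 FPKM in Homo and *H2-DMb1* at 115 to 132 and 133 to 159 FPKM. The difference between both lists was not tested.

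Of the guanylate-binding proteins and immunity-related GTPases, 13 of 17 were above 0 (median 0.26), with *Gbp6*, *Gm4951* and *F830016B08Rik* higher at an unadjusted p below 0.05. In the list of NF-kB feedback genes, which are induced by that pathway and restrain or extend it, 18 of 20 were above 0 (median 0.16), and 5 were higher at an unadjusted p below 0.05, *Vcam1*, *Tnfaip2*, *Nfkb2*, *Icam1* and *Bcl3*. *Icam1* was at 91.4 FPKM on average in WT and 112 FPKM in Homo. Of 24 chemokines and cytokines, *Csf1*, *Il1b* and *Cxcl16* were higher at an unadjusted p below 0.05. *Csf1*, a growth factor of microglia, was at 6.60 to 8.46 FPKM in WT and 10.2 to 15.6 FPKM in Homo libraries (log2 difference 0.68, SE 0.21, limma adjusted p = 0.658). None of these lists had a lowered member at an unadjusted p below 0.05. Of all genes tested, 2.31% were higher and 1.17% lower at such a p, and 50.3% lay above 0.

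Genes of disease-associated microglia and of resting microglia were read side by side. Of 27 tested genes of disease-associated microglia, 21 were above 0 (median 0.15) and 4 were higher at an unadjusted p below 0.05, *Cst7*, *Csf1*, *Axl* and *Lyz2*, of which only *Cst7* was a DEG. Of all genes tested, 50.3% lay above 0 and 2.31% were higher at such a p. *Axl*, a receptor for dying cells, was at 4.63 to 7.81 FPKM in WT and 7.75 to 10.8 FPKM in Homo libraries, with overlap. *Cd9* was at 1103 FPKM on average in WT and 1318 FPKM in Homo, and *Lpl*, a lipase, at 10.4 and 7.92 FPKM. *Lpl* was lower without overlap, at 9.55 to 12.2 FPKM in WT and 6.85 to 8.85 FPKM in Homo libraries. Of the 27, 7 were higher and 1 lower without overlap, as were 278 and 112 of all 16897 genes tested. Of 26 homeostatic genes, 0 had an unadjusted p below 0.05 (median 0.04), and *Cx3cr1*, with its Cre allele, was the only one without overlap between the groups. The summed level of the homeostatic list was 73873 to 79108 FPKM in WT and 76096 to 84363 FPKM in Homo libraries. Complement genes gave 0 of 19 (median -0.01).

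Among 26 G protein coupled receptors of microglia, 6 were higher and 1 lower at an unadjusted p below 0.05 (2.31% and 1.17% of all genes tested), and the median was -0.00. The higher ones were *Hcar2*, *Gpr153*, *Gpr162*, *Adora1*, *Gpr84* and *Ccrl2*. *Gpr153*, an orphan receptor that the study named on these libraries, was at 0.240 to 0.384 FPKM in WT and 0.713 to 1.21 FPKM in Homo libraries (log2 difference 1.24, SE 0.32, limma adjusted p = 0.245). The lower one, *Gpr165*, was at 45.4 to 60.5 and 26.5 to 46.6 FPKM. In sterol and lipid synthesis, genes higher at an unadjusted p below 0.05 included *Fdps*, at 12.9 FPKM on average in WT and 16.5 FPKM in Homo, and *Insig1*, at 2.70 and 3.85 FPKM.

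Lists closest to the known work of BIN1 were read next. Of 15 N-BAR genes, *Bin1* was the only one at an unadjusted p below 0.05. Of 34 genes of clathrin endocytosis and the early endosome, 0 had an unadjusted p below 0.05 (median -0.02). *Ehd1* of this list, a factor of endosomal recycling, was the only one without overlap, at 0.382 to 0.647 FPKM in WT and 0.722 to 1.21 FPKM in Homo libraries. Without overlap, 278 of all 16897 genes tested were higher. *Dab2*, a clathrin adaptor that was placed with the markers of border macrophages, was lower in Homo at an unadjusted p of 0.00762 by limma and without overlap. Of 33 genes of the ESCRT machinery and extracellular vesicles 1 had an unadjusted p below 0.05, *Mvb12b*. It was at 14.7 to 21.2 FPKM in WT and 16.1 to 24.2 FPKM in Homo libraries. Of the 33, 1 was higher and 2 were lower without overlap, as were 278 and 112 of all 16897 genes tested. *Chmp4b*, the ESCRT subunit that the study named, was at 4.14 ± 0.310 (SD, n = 4) FPKM in WT and 4.23 ± 0.590 (SD, n = 5) FPKM in Homo, a log2 difference of 0.02 with a 95% interval from -0.54 to 0.58. At an unadjusted p below 0.05, lysosomal genes gave 0 of 31, Alzheimer risk genes 0 of 26 and cell cycle genes 0 of 24. Immediate early genes, which mark dissociation, gave 0 of 23. Matrix genes gave *Lox* and *Adamtsl2* among 16. The summed level of the lysosomal list was 15912 to 16581 FPKM in WT and 16613 to 17115 FPKM in Homo libraries. That of the ESCRT list was 4376 to 4706 FPKM in WT and 4736 to 5039 FPKM in Homo libraries. Neither sum overlapped between the groups. The endocytosis sum did, at 1293 to 1391 FPKM in WT and 1280 to 1364 FPKM in Homo libraries. Of 13 mitochondrially encoded genes, 12 were above 0 (median 0.30) and 1 had an unadjusted p below 0.05, *mt-Nd2*, at 129 to 162 FPKM in WT and 166 to 256 FPKM in Homo libraries. Over all genes tested, 50.3% lay above 0 and 2.31% were higher at such a p.

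**Figure D4:**
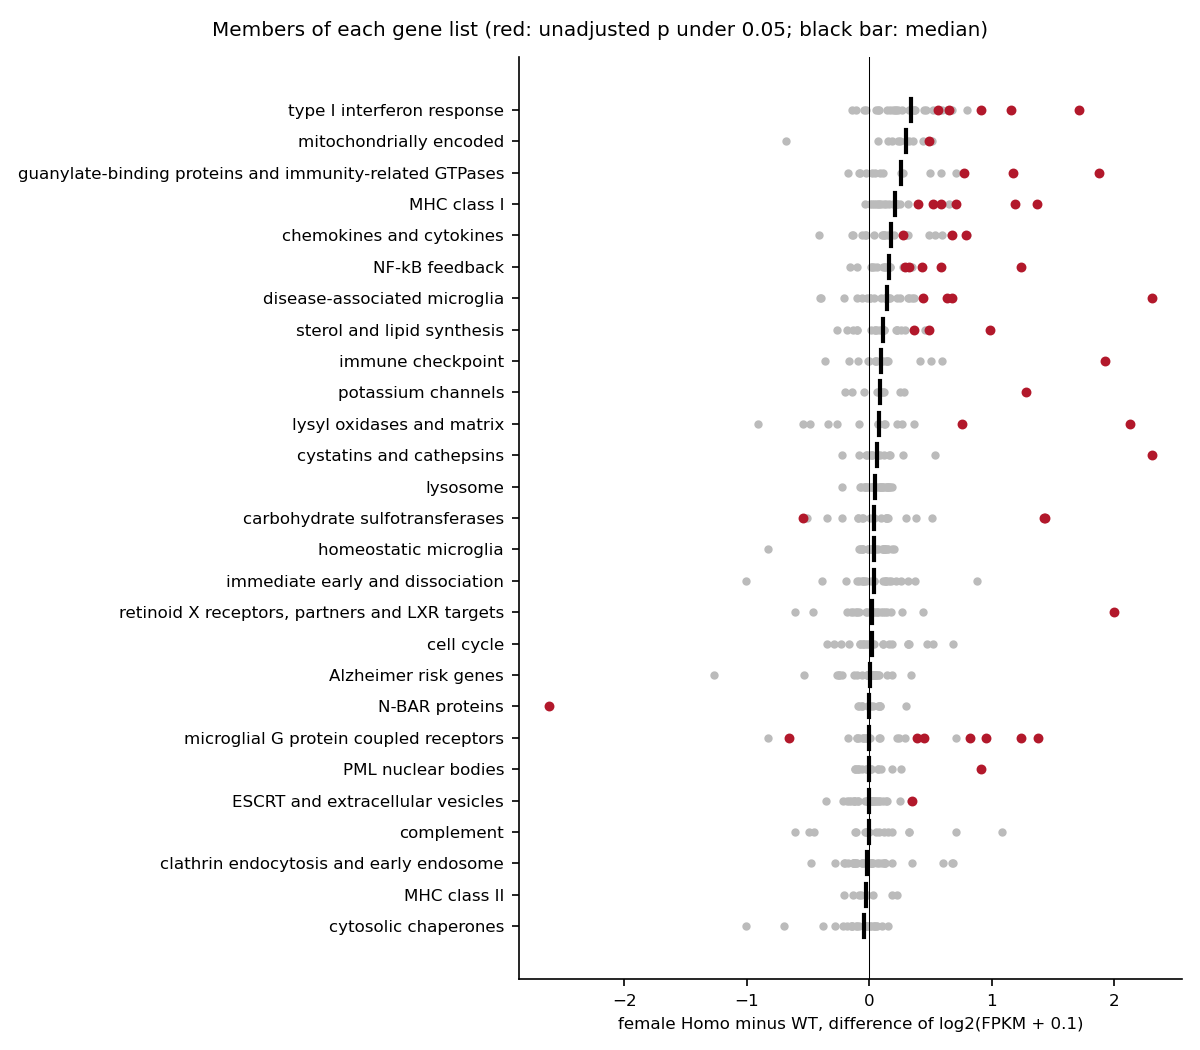
Log2 differences (female Homo minus WT) of the members of each gene list; each point is a gene, red points have an unadjusted p below 0.05 by limma, and black bars are the list medians. Interferon, MHC class I and NF-kB lists have medians of 0.16 to 0.34, while endocytosis, ESCRT and chaperone lists have medians near 0. The list of mitochondrially encoded genes has a median of 0.30.

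The list of heat shock chaperones, folding factors of which the study named 5 in male mice, gave 0 of 26 at an unadjusted p below 0.05 in females (median -0.05). Of the 26, 1 was higher and 0 were lower without overlap, as were 278 and 112 of all 16897 genes tested. *Hspa8* was at 537 ± 111 (SD, n = 4) FPKM in WT and 468 ± 120 (SD, n = 5) FPKM in Homo, and *Hsp90ab1* at 206.96 ± 40.5 and 173 ± 47.1 FPKM. Their log2 differences were -0.22 (95% interval -0.60 to 0.17) and -0.28 (-0.72 to 0.16). When 1 library was left out, they ranged from -0.34 (without Homo-F-0234) to -0.08 (without WT-F-0200) for *Hspa8* and from -0.42 (without Homo-F-0234) to -0.15 (without Homo-F-0201) for *Hsp90ab1*. *Hsp90aa1*, *Dnaja1* and *Dnajb1* had log2 differences of 0.10, -0.15 and -0.18. In males the same 5 genes had log2 fold changes between -1.23 and -0.85. The difference between the sexes, tested by limma, was 0.95 for *Hsp90ab1* (SE 0.29, unadjusted p = 0.00316), 0.95 for *Hsp90aa1* (unadjusted p = 0.0036), 0.69 for *Hspa8* (unadjusted p = 0.0115), 0.92 for *Dnaja1* (unadjusted p = 0.0119) and 0.73 for *Dnajb1* (unadjusted p = 0.0148), with adjusted p of 0.495 to 0.525 by limma. With late mouse numbers alone these differences were 0.36 to 0.64 and none had an unadjusted p below 0.05 (0.0888 to 0.261), and after adding that range to the model they were 0.35 to 0.62 (0.0608 to 0.219).

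The comparison of female Homo with female Het asks what changes when the second *Bin1* copy is also recombined, since both groups carry Cre. In this contrast 2 genes passed the DEG thresholds (0.0118% of those tested), *Bin1* (log2 fold change -1.55, SE 0.26, limma adjusted p = 0.0145) and the pseudogene *Smt3h2-ps4*. The latter, named after its values were seen, was at 0.641 to 1.35 FPKM in 4 of the 5 Het libraries, and was listed at 0 in Het-F-0206 and in all Homo and WT libraries. None of the 11 raised genes differed between Homo and Het at an unadjusted p below 0.05 (2.06% of all genes did), with log2 differences from -0.34 for *Chst2* to 0.61 for *Gbp6*. The 95% interval was -0.60 to 0.26 for *Cst7*, -0.61 to 0.09 for *Chst1*, -0.73 to 0.25 for *Pdcd1*, -0.46 to 0.03 for *Sp100* and -0.84 to 0.81 for *Lox*, so a difference of a size within these bounds cannot be seen here. Dropping any 1 of the 5 Homo libraries or the 4 other Het libraries left 0 DEGs in this contrast, and dropping Het-F-0206 left the same 2. In the 9 fits with 0 DEGs *Bin1* kept log2 fold changes of -1.57 to -1.44, with adjusted p of 0.0528 to 0.133 by limma.

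When Het-F-0206 was left out, the Het mean was 42.2 ± 4.95 (SD, n = 4) FPKM for *Cst7*, 37.9 ± 7.21 for *Chst1* and 11.2 ± 1.04 for *Pdcd1*, beside Homo means of 43.2, 35.4 and 11.4 FPKM. The intervals of Homo minus Het were then -0.38 to 0.43 for *Cst7*, -0.41 to 0.24 for *Chst1* and -0.43 to 0.46 for *Pdcd1*. *Gbp6* was at 0.543 ± 0.162 (SD, n = 4) FPKM in these Het libraries and 0.983 ± 0.261 (SD, n = 5) FPKM in Homo, a log2 difference of 0.76 (95% interval 0.06 to 1.45, unadjusted p = 0.0345), and *Kcnj12* gave 0.47 (0.02 to 0.91, unadjusted p = 0.04). Both had an adjusted p of 1 by limma. *Bin1* gave -1.93 (SE 0.18, limma adjusted p = 1.91e-07).

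In Het-F-0206 itself, 8 of the 11 raised genes were higher than in any of the other 9 Cre-positive female libraries, which was so for 11.0% of all genes tested. For the other 9 libraries taken in turn, that share of all genes was 6.02% to 15.5%. This count was made after the values had been seen. *Cst7* was at 85.3 FPKM there and at 35.6 to 50.5 FPKM in the other Cre-positive libraries, *Chst1* at 68.9 against 32.4 to 48.5 FPKM, *Pdcd1* at 27.5 against 8.36 to 14.1 FPKM and *Lox* at 6.10 against 1.10 to 3.14 FPKM. *Kcnj12*, *Gbp6* and *Pla2g16* were within the range of the other libraries. *Xirp1*, an actin-binding protein gene of muscle, was also chosen after its values were seen. It lies on chromosome 9 from 120013755 to 120023598 of GRCm38, inside the annotated span of *Cx3cr1* (119901616 to 120069879), and was at 3.54 FPKM in Het-F-0206, at 0.503 to 1.18 FPKM in the other Cre-positive and at 0.161 to 0.471 FPKM in the WT libraries. Its log2 fold change between Homo and WT was 1.41 (SE 0.36, limma adjusted p = 0.247, and 0.0359 without Het-F-0206).

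Female Het against WT shares the WT libraries with Homo against WT, so the 2 log2 fold changes of a gene are given side by side. The Het values include Het-F-0206. They were 2.48 in Het and 2.31 in Homo for *Cst7*, 1.68 and 1.43 for *Chst1*, 2.16 and 1.92 for *Pdcd1*, 1.13 and 0.91 for *Sp100*, 2.03 and 2.00 for *Rxrg*, 1.77 and 1.43 for *Chst2*, and 2.14 and 2.13 for *Lox*. For *Kcnj12* they were 0.94 in Het and 1.28 in Homo, for *Gbp6* 1.26 and 1.87, for *Gm4951* 1.03 and 1.17, and for *Pla2g16* 0.55 and 0.62. For *Bin1* they were -1.07 and -2.62. Without Het-F-0206 the Het values were 2.28 for *Cst7*, 1.51 for *Chst1*, 1.91 for *Pdcd1*, 1.82 for *Lox* and -0.69 for *Bin1*.

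Male Homo and WT mice (5 libraries each) share no library with the females. There, 306 genes passed the thresholds (1.81% of those tested), and among them were 11 of the 12 female DEGs. All 12 had the direction they had in females. *Pla2g16* did not pass in males (log2 difference 0.21, SE 0.11, limma adjusted p = 0.266). Among the male libraries of the late number range alone, 5 of the 12 passed. Male log2 fold changes were 2.08 for *Cst7*, 3.06 for *Lox*, 1.97 for *Pdcd1*, 1.47 for *Gm4951* and 0.89 for *Chst2*. The sex by genotype interaction, female minus male, passed an adjusted p of 0.05 for 0 of the 16897 genes by limma, with 1569 (9.29%) at an unadjusted p below 0.05. That number was 583 with late mouse numbers alone, 659 with the number range as a covariate and 912 without WT-F-0122. Of the 5 male Homo libraries 3 have early numbers, and of the male WT libraries 0. Of the 12 DEGs, *Pla2g16* had such a p (0.0212, log2 difference 0.41, 95% interval 0.07 to 0.75, limma adjusted p = 0.525), and the others did not. With late numbers alone the difference for *Pla2g16* was 0.32 (unadjusted p = 0.118 by limma). For *Lox* the interval was -2.13 to 0.28 and for *Chst2* -0.04 to 1.13, so a difference between the sexes of such a size could have gone unseen.

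Markers of other cells were read in the same 9 libraries, because a sorted sample can hold other cells and because in bulk RNA more cells of a type and more RNA per cell cannot be told apart. Choroid plexus markers summed to 208.4 FPKM in WT-F-0192 and 35.1 FPKM in WT-F-0200 and to at most 3.62 FPKM in the other 7 libraries. All 9 such genes tested lay below 0 in Homo minus WT, with *Ttr* at 34.7 FPKM on average in WT and 1.02 FPKM in Homo. Neutrophil markers summed to 7.05 to 159 FPKM in WT and 0.314 to 72.9 FPKM in Homo libraries, again highest in WT-F-0192, and 7 of 9 lay below 0. *Ngp* was at 1.40 to 33.3 FPKM in WT and 0 to 12.7 FPKM in Homo libraries, and *Chil3*, also a gene of myeloid cells from blood, at 0.554 to 7.68 and 0 to 2.61 FPKM. Border macrophage markers summed to 134 to 188 FPKM and 145 to 187 FPKM, with *Dab2* and *F13a1* lower in Homo at an unadjusted p below 0.05. *Dab2*, which is also a clathrin adaptor, was at 10.8 to 15.6 FPKM in WT and 5.48 to 9.74 FPKM in Homo libraries. Neuronal markers summed to 24.8 FPKM in Homo-F-0238 and 2.88 to 6.07 FPKM in the other 8 libraries. Of the neuronal markers tested, 9 of 10 lay above 0 in Homo minus WT (median 0.60, 2 at an unadjusted p below 0.05), as did 8 of 9 astrocyte (median 0.38) and 7 of 8 oligodendrocyte markers (median 0.33). Over all genes tested, 50.3% lay above 0, and 2.31% were higher and 1.17% lower at such a p. Monocyte, astrocyte, oligodendrocyte, and endothelial and mural sums overlapped between the groups. The part of these markers in the results was not tested. Without WT-F-0192 there were 9 DEGs and without Homo-F-0238 also 9, all of them among the 12.

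**Figure D5:**
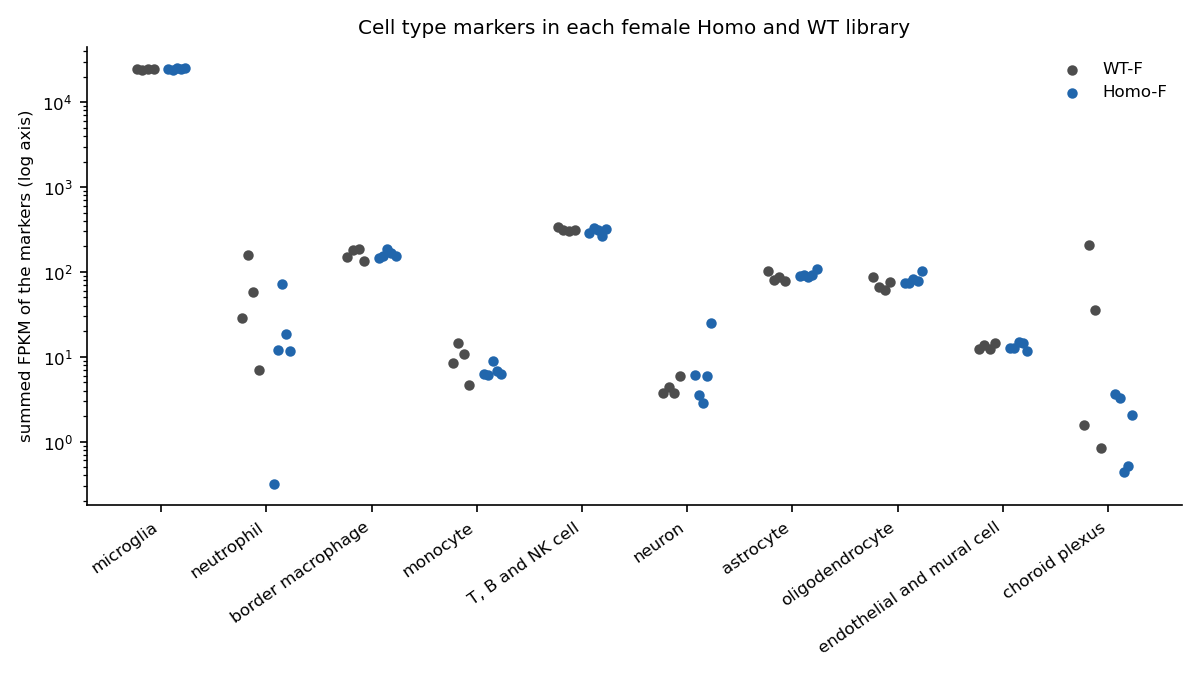
Summed FPKM of the markers of each cell type (log axis) in every female WT (grey) and Homo (blue) library. Microglial markers lie between 23871 and 25441 FPKM in all 9 libraries, and choroid plexus markers are highest in 2 WT libraries.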

How the data were processed

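RNA of sorted microglia was sequenced by the study from SMARTer v4 and Nextera XT libraries. The protocol filed with the samples also describes cultured microglia, and the paper's account was followed. The authors aligned reads to mm10 with OSA4, estimated abundance with RSEM on an Ensembl gene model and deposited FPKM, without a logarithm, for 47643 genes, of which 47224 were given a symbol here. The 6 columns of values that match no listed sample were not used. Counts were not analysed here, so absolute depth is unknown and no counting error is given.

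FPKM were scaled with median-of-ratios factors from 11436 genes of mean FPKM 1 or more. After adding 0.1, log2 values were fitted for all 6 groups with an intensity trend in limma 3.58.1 (R 4.3.3). The step was tested on simulated data, in which each gene had normal noise of the same spread in all groups. Differences in depth, other cells and a library apart from its label were not simulated, so their effect on the fit was not tested. The thresholds of a DEG were 0.05 for the Benjamini-Hochberg adjusted p and 1.5 for the fold change. The 93 named genes were compared on the deposited FPKM by exact two-sided permutation tests over all 126 splits (scipy 1.17.1, Python 3.11.15). Named genes were the DEGs, 8 raised and 8 lowered genes of smallest p without overlap and with a fold change above 1.5, *Bin1*, *Cx3cr1*, genes named by the study, and the member of smallest p in each direction of each list. Of the last, only those at an unadjusted p below 0.05, and the leading members of lists, are printed. The members and lists were chosen with earlier results of these data known. Gene positions are from GENCODE M21 (GRCm38) and promoters from RefSeq, without chromosome 18.

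Alternatives were other pseudocounts (0.01 and 1), filters and scalings, array weights, the groups compared alone, the mouse number range as a covariate or late numbers alone, no fold threshold, and leaving out each library. Scaled FPKM in the permutation tests were added after the data were seen. Values of 1 named gene are not reported here.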

Additional observations from a re-analysis of the deposited data

Results flagged for a closer look

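In 11 of 93 examinations of a gene in a group (11.8%), the highest or lowest library lay far from the others by Dixon's criterion. For independent, normally distributed values chance gives about 1 in 20. These were FPKM without a logarithm, of genes that share the same libraries and were partly chosen by their values. The share of 11.8% can therefore not be set against that rate. In 3 of the 11 (*Gm42696*, *Folr1* and *Itm2a*) the other 4 libraries were listed at 0, so that the rate cannot apply to them at all. Among female Homo libraries the far value was the highest in each of these cases except one. *H2-Q6* reached 17.2 FPKM in Homo-F-0234. *Gpr153* was at 1.21 FPKM, *Gm42696* at 0.0933 FPKM and *Folr1* at 0.322 FPKM in Homo-F-0193. *Chil3* was at 2.61 FPKM, *Ngp* at 12.7 FPKM and *Chmp4b* at 5.26 FPKM in Homo-F-0228. *Itm2a* was at 0.0575 FPKM in Homo-F-0238, and *Mvb12b* was lowest there, at 16.1 FPKM. Among female WT libraries, *Gm8648* was highest in WT-F-0122 at 1.03 FPKM, and *Hspa8* in WT-F-0200 at 703 FPKM. None of these was a DEG.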

How the results depend on the processing

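The 12 DEGs between female Homo and WT numbered 10 to 18 under the other pseudocounts, filters and scalings, late mouse numbers and the covariate, but 23 when only the groups compared were fitted (9 of the 12 among them) and 36 with array weights (all 12 among them). Leaving out each library gave 7 to 11. The 2 DEGs between female Homo and Het were 1 with the pseudocount 0.01, with the filter at a mean FPKM of 1 and with no filter, and 0 with the groups compared alone and with late numbers alone. Leaving out a library gave 0 to 2. Only *Smt3h2-ps4* passed without the filter, and only *Bin1* with the other filter and pseudocount. The interaction gave 0 genes except 1 with the groups compared alone. The cause of these shifts was not tested. Of the 93 named genes, 40 passed an adjusted permutation p of 0.05, and 39 with scaled FPKM, a choice added after the data were seen. Some named genes were chosen because their groups did not overlap, so these counts were partly set by that choice. Of 949 recomputed values of 48 named genes, 868 kept their direction and side of the threshold, 40 fell below it, 32 passed it and 9 changed sign, to values between -0.14 and 0.0021. Leaving out a library in turn, *Dnaja1* ranged from -0.31 to 0.0021, *Hsp90aa1* from -0.037 to 0.20 and *Chmp4b* from -0.064 to 0.068. With late numbers alone, *Hsp90aa1* became -0.037 and *Chmp4b* -0.012, and with the covariate -0.023 and -0.14. All but 3 of 111 recomputed list medians moved by less than the spread between libraries. No paired analysis was possible because each mouse number is unique to a library. FPKM hold no read totals, so low genes such as *Gbp6*, *Chst2* and *Lox* carry a counting error that is not known here.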
